A study of Homo sapiens with 44 samples.

Results

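The gene set described here holds the enzymes that write DNA methylation and those that begin its removal, with their close partners. It was fixed by symbol as DNMT1, DNMT3A, DNMT3B, DNMT3L, UHRF1, TET1, TET2, TET3 and TDG, and each symbol was matched to 1 Ensembl gene through GENCODE. The 9 genes are 9 of the 60499 genes listed in the count table, and all 9 are among the 22955 genes with enough counts to be tested. DNMT3L passed that filter through its early groups alone.

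H1 is an established human embryonic stem cell line, here the only line used, supplied by WiCell. RNA was measured in 44 wells of 12 groups during differentiation towards heart cells. Pluripotent cells grew on the laminin LN-521, a basement-membrane protein, and the wells of every other group carried LN-521 mixed with LN-221. Confluent cells (day 0) received CHIR99021, a GSK3 inhibitor that activates Wnt signalling, and IWP2, which blocks Wnt secretion, was given at day 3. The B-27 supplement lacked insulin until about day 10 and was the complete CTS form afterwards, so the wells of days 11 to 90 had also been through that change. Days 5, 7, 9 and 11 have 5 wells each, while the pluripotent group and days 0, 1, 3, 14, 20, 30 and 90 have 3 each. The series text gives 3 wells for day 11 and the labels give 5, and all 5 were used. The labels call the wells biological replicates of 1 line, so the p-values below measure the spread between wells.

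DNA methylation is added to cytosines that precede guanine. DNMT3A and DNMT3B place it on unmethylated DNA, DNMT3L stimulates them without being an enzyme itself, and DNMT1 copies it onto the new strand after replication, guided there by UHRF1, which binds hemimethylated DNA. TET1, TET2 and TET3 oxidise methylated cytosine, and TDG cuts out the most oxidised forms so that base excision repair can insert an unmodified base. Human pluripotent cells are known for high DNMT3B, and TET2 is widely studied in blood and in the heart.

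Levels are given as CPM, counts scaled to library size after TMM normalization, and a value is a level unless it is called a change. Changes are fitted log2 differences with their standard error (SE), and a gene passed where its p from the quasi-likelihood test of edgeR, adjusted over the 22955 genes tested, was under 0.05. Intervals are normal 95% intervals of the log2 change. Total counts ran from 6937136 to 33498022 per library with a median of 26010763, and 3 counts, taken as the floor, correspond to 0.0919 to 0.410 CPM. The summed level of POU5F1, SOX2 and NANOG had a median of 1969 CPM in pluripotent wells and 1.96 CPM at day 90, and the summed level of the 4 cardiac markers TNNT2, MYH6, ACTN2 and MYL7 had medians of 32.8 and 11262 CPM. The wells were mixtures: the 5 endoderm and liver markers summed to between 467 and 6105 CPM at day 9 and to between 8.43 and 133.66 CPM at day 90. Among the 5 wells of day 11, replicates 1 and 2 stood apart from replicates 5, 6 and 7, with endoderm sums of 4502 and 8592 CPM against 154 to 167 CPM and cardiac sums of 7144 and 4631 CPM against 17191 to 18368 CPM. In bulk RNA, fewer cells of a type and less RNA per cell cannot be told apart.

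Of the 9 genes, DNMT3B and TET2 carried most of the change, and they moved in opposite directions. From day 0 to day 9, 5 of 9 members passed, 1 higher and 4 lower, against 47.6% of all genes tested (24.1% higher and 23.5% lower), so the number that passed is close to the background. The median change of the members was -0.36 and that of all genes tested 0.08. TET2 rose, and DNMT3B, DNMT1, UHRF1 and DNMT3L fell. DNMT3L entered the test through the groups where it is high, which favoured a fall, so its calls are descriptions, and without it 4 of 8 passed. From day 9 to day 90, 4 of 9 passed against 38.4% of all genes (18.7% higher and 19.7% lower): TET2 rose, and DNMT3B, DNMT3A and TET3 fell. The members' median change was then -0.54, beside -0.02 for all genes tested. What sets members apart from each other is therefore size and direction more than the number that passed.

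**Figure D1:**
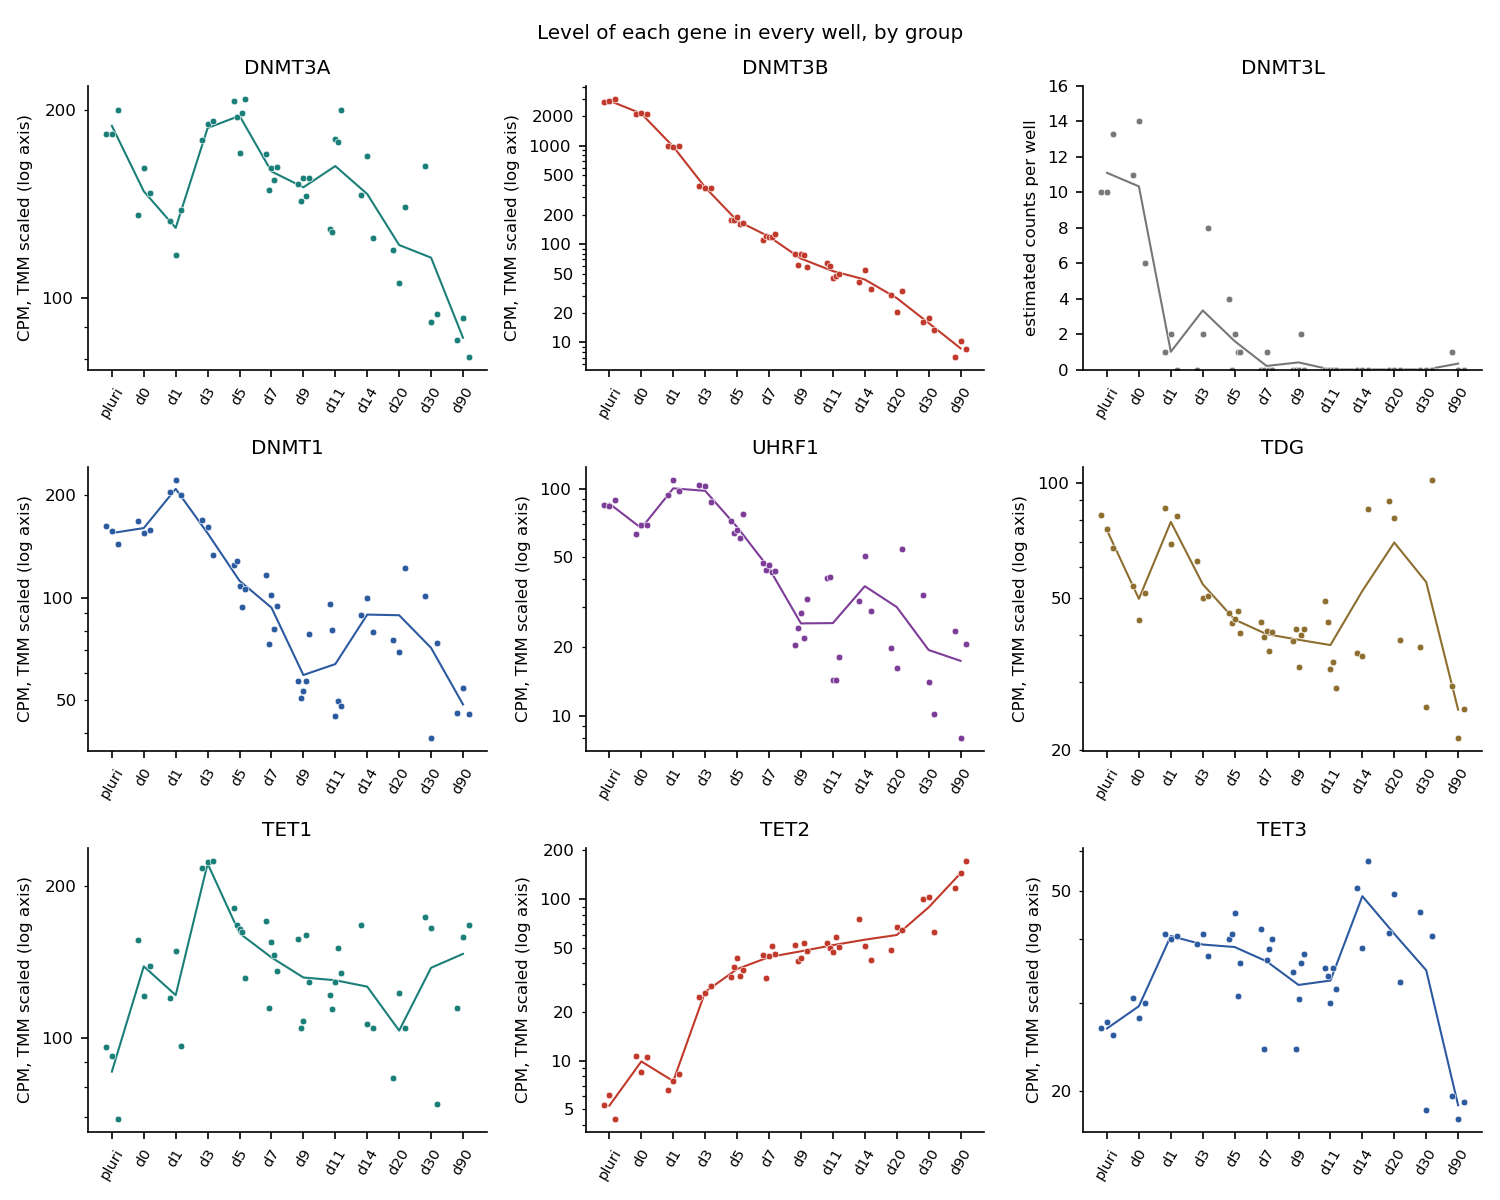
Level of each of the 9 genes in every well (points) and the group mean (line) for the 12 groups in time order. Axes are CPM on a log scale, except for DNMT3L, which is drawn as estimated counts on a linear scale because no well held more than 14. DNMT3B descends through all groups from a mean of 2879 to 8.70 CPM and TET2 climbs from 5.27 to 144.6 CPM, while the wells of days 11 to 30 are widely spread for UHRF1, DNMT1 and TDG.

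DNMT3B (ENSG00000088305, chromosome 20, 32762385 to 32809356, plus strand, here and below in GRCh38 from GENCODE) was the most abundant member at the outset and fell in every step tested from day 0 onward. Its level was 2779.8, 2849.5 and 3008 CPM in the 3 pluripotent wells, 2088, 2173 and 2134 CPM at day 0 and 992, 964.5 and 989.8 CPM at day 1. At day 3 it was 391.7, 370.3 and 373 CPM, and the 5 wells of day 5 lay between 159.5 and 188.6 CPM. None of these groups overlapped the next one. The 5 wells of day 7 lay between 110.7 and 128 CPM and those of day 9 between 57.9 and 80.2 CPM, and the mean then passed through 53.2 CPM at day 11, 43.7 CPM at day 14 and 28.3 CPM at day 20. At day 30 the wells held 16.2, 17.8 and 13.3 CPM and at day 90 they held 7.17, 10.4 and 8.57 CPM. Ordered by mean, the 12 groups run strictly in time, and 2 of the 11 neighbouring pairs overlap, day 9 with day 11 and day 11 with day 14.

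The fall from pluripotent cells to day 0 on confluence and mixed laminin did not pass (-0.43, SE 0.16, adjusted p = 0.11), although the ranges were apart. With only these 2 groups in the fit it passed (-0.40, SE 0.05, adjusted p = 1.8e-04), a fit that called 8655 of 17557 genes. With all groups in the fit 1 of 9 members passed in that comparison, against 5.88% of all genes tested (3.45% higher and 2.43% lower). DNMT3B then fell by 1.12 (SE 0.17, adjusted p = 3.7e-06) on the log2 scale from day 0 to day 1, by 1.38 (SE 0.17, adjusted p = 4.4e-08) from day 1 to day 3 and by 1.12 (SE 0.14, adjusted p = 2.8e-07) from day 3 to day 5. The fall from day 5 to day 9 was by 1.28 (SE 0.13, adjusted p = 1.1e-09), from day 9 to day 30 by 2.18 (SE 0.16, adjusted p = 1.2e-12) and from day 30 to day 90 by 0.86 (SE 0.17, adjusted p = 0.0013). The first of these calls was lost on the deposited TPM (-0.93, adjusted p = 0.0503 to 0.0896), and the last when only the day 30 and day 90 wells were fitted (adjusted p = 0.377) and on TPM of all genes (adjusted p = 0.0574).

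Per day, the loss was steepest at the start. The group means differed by -1.12 log2 units in the day after CHIR99021, by -0.69 per day from day 1 to day 3 and by -0.56 per day from day 3 to day 5. It was -0.27 and -0.37 per day over the next intervals to day 9, between -0.21 and -0.08 per day from there to day 30, and -0.01 per day over the 60 days to day 90. Over the whole specification phase, day 9 against day 0, DNMT3B fell by 4.90 (SE 0.16, 95% interval -5.21 to -4.60, adjusted p = 6.2e-24), and from day 9 to day 90 by another 3.04 (SE 0.17, adjusted p = 2.1e-16).

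The late DNMT3B level was set beside the POU5F1 counts of the same wells, because reads can be shared within a sequencing lane. POU5F1, a core pluripotency factor, was at 73.0% of its pluripotent mean at day 1 and at 0.186% at day 9. Its counts in the 6 wells of days 30 and 90 were 0.0532 to 0.0671% of the POU5F1 counts in the other libraries of the same lane. DNMT3B counts in the day 90 wells were 160, 149 and 153. If all POU5F1 counts of these wells came from lane neighbours and DNMT3B were shared alike, 104, 54.0 and 96.5 would be left. The share taken off was that of each well. The day 90 mean would then be 4.61 ± 0.825 CPM (SD, n = 3) in place of 8.70 ± 1.60, and the pluripotent mean 624.9-fold higher in place of 331-fold. At day 30 the mean would be 11.5 CPM in place of 15.8. Whether the late POU5F1 counts, or any part of the late DNMT3B signal, come from lane neighbours was not tested. The subtraction was chosen after seeing the data.

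DNMT3B at day 90 was 0.302% of its pluripotent mean. For comparison, the pluripotency factors POU5F1, NANOG and SOX2 were at 0.140, 0.162 and 0.124% there, and LIN28A, an RNA-binding protein of early development, at 0.237%. At day 9 the order was wider: DNMT3B was at 2.48% of its pluripotent mean, POU5F1 at 0.186%, NANOG at 0.314%, SALL4 at 25.8% and LIN28A at 16.9%. NANOG stood at 168% at day 1, when DNMT3B was already at 34.1%, and PRDM14, a transcription factor that in mouse cells is known to repress the de novo writers, was at 2.45%. LIN28A and SALL4 were singled out after their values were seen.

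DNMT3A, the other de novo enzyme (ENSG00000119772, chromosome 2, 25227855 to 25342590, minus strand), changed far less. Its wells held 183, 183 and 201 CPM in the pluripotent group, 136, 162 and 148 CPM at day 0 and 133, 118 and 138 CPM at day 1. At day 3 they held 179.6, 190.2 and 192 CPM, above all wells of day 1. From day 1 to day 3, 4 of 9 members passed against 28.7% of all genes (15.7% higher and 12.9% lower), and DNMT3A was one of the 3 that rose, by 0.53 (SE 0.16, adjusted p = 0.012), a call lost without day 1 replicate 2, day 3 replicate 2 or day 3 replicate 3 (adjusted p = 0.0539 to 0.0885) and on all TPM settings. Day 5 lay between 171 and 208.7 CPM and day 9 between 143 and 156 CPM.

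Over the whole of specification the level of DNMT3A did not differ beyond the spread (0.02, SE 0.15, 95% interval -0.26 to 0.31, adjusted p = 0.92, day 9 against day 0). It fell from day 9 to day 90 by 0.80 (SE 0.15, adjusted p = 4.4e-05), with 85.7, 93.0 and 80.6 CPM at day 90, below every well of day 9. The smaller steps within this course, -0.38 from day 5 to day 9 (adjusted p = 0.028) and -0.37 from day 9 to day 30 (adjusted p = 0.0496), are weak calls. The first was lost without day 5 replicate 1, 4 or 5 or day 9 replicate 10 or 3 (adjusted p = 0.0506 to 0.0640), and the second under RLE scaling (adjusted p = 0.0515), without any 1 of the day 9 wells, and without day 30 replicate 10 or 3, where the change was -0.25. At day 30, replicate 1 held 163 CPM while replicates 10 and 3 held 91.4 and 94.2 CPM. At day 11, replicates 1 and 2, the wells with high endoderm sums, held 129 and 128 CPM against 179.8, 178 and 200.02 CPM in replicates 5, 6 and 7. All 11 neighbouring pairs of groups overlapped in the order of DNMT3A levels.

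DNMT3L (ENSG00000142182, chromosome 21, 44246339 to 44262216, minus strand) was near the floor throughout. Pluripotent wells had 10, 10.01 and 13.29 estimated counts and day 0 wells 11, 14 and 6, and the wells of day 1 had 1, 2 and 0. No well from day 7 on held more than 2 counts, and all wells of days 11, 14, 20 and 30 held 0. The day 0 mean of 0.347 CPM was at least 3.58-fold higher than the floor of 3 counts per library at day 1 and at least 3.11-fold higher than that at day 9. The call from day 0 to day 1 (adjusted p = 0.049) was lost on leaving out any 1 of the 6 wells (adjusted p = 0.081 to 0.22). In the step from day 0 to day 1, 2 of 9 members passed both lower, against 22.1% of all genes (9.78% higher and 12.3% lower), DNMT3B being the other. An antisense gene, AP001059.1, shares exonic sequence with DNMT3L, and whether counting used the strand is not given in the sources used here.

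Compared per transcript length, the 3 methyltransferases changed places. In pluripotent wells DNMT3B had 400.7 TPM (a unit that corrects for transcript length), DNMT3A 35.5 and DNMT1 24.6, so that DNMT3B made up 87.0% ± 0.79 (SD, n = 3) of their sum. Its share was 84.8% at day 0, 69.9% at day 1, 48.2% at day 3, 33.8% at day 5 and 25.8% ± 4.01 (SD, n = 5) at day 9. DNMT3A went from 7.72% ± 0.29 in pluripotent wells to 50.9% ± 2.29 at day 9, and day 5 was the first group in which its mean share (41.7%) was above that of DNMT3B. DNMT1 had 5.27% in pluripotent wells, 23.4% at day 9 and 45.7% ± 7.04 (SD, n = 3) at day 20. There it was above DNMT3A in replicate 2 alone (53.8% against 35.1%), the library with the fewest counts, and below it in replicates 1 (42.1% against 43.8%) and 3 (41.1% against 46.5%). At day 90 the shares were 57.9% ± 2.38 for DNMT3A, 34.6% ± 1.81 for DNMT1 and 7.42% ± 1.51 for DNMT3B (SD, n = 3 each).

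The log2 ratio of DNMT3A to DNMT3B TPM was -3.48 ± 0.14 at day 0 (SD, n = 3), 1.00 ± 0.23 at day 9 (SD, n = 5) and 2.99 ± 0.36 at day 90 (SD, n = 3). Groups did not overlap in either comparison. The differences of 4.47 and 1.99 each had p = 0.0357 in a two-sided exact permutation test, the smallest value that 3 against 5 wells allow, and an adjusted p of 0.0536 over the 6 ratio tests, so none of the 4 ratio differences at the smallest p passed after adjustment.

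**Figure D2:**
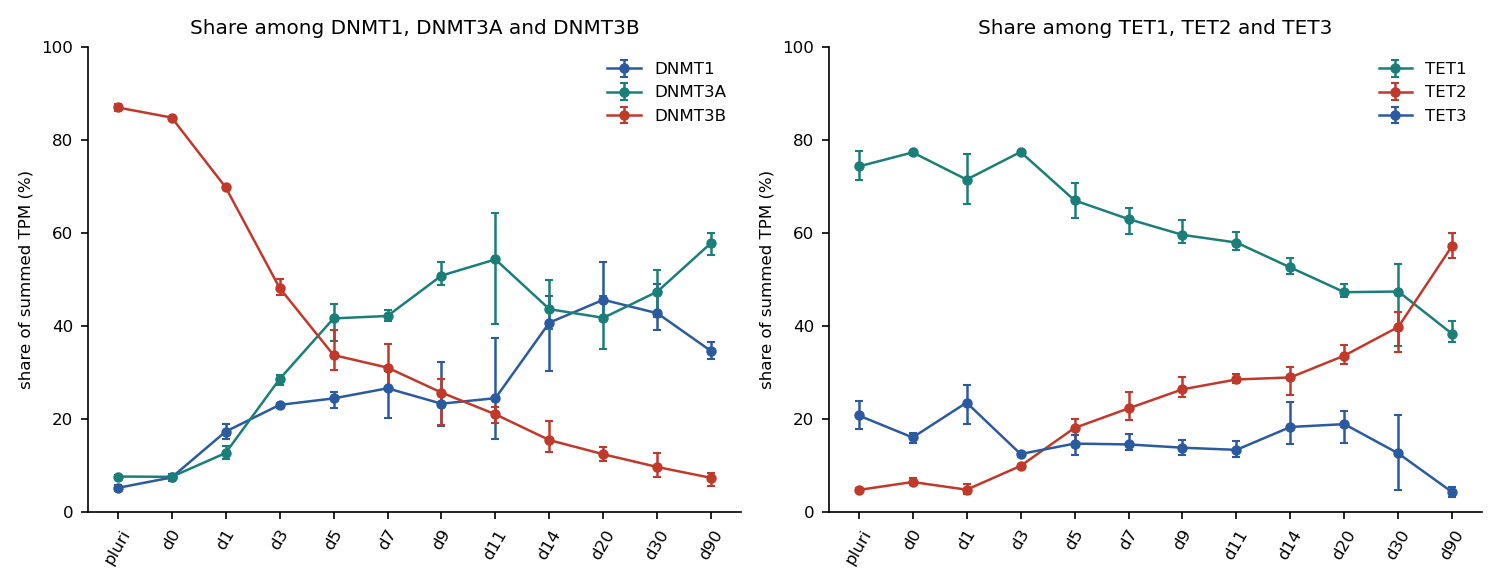
Share of summed TPM (%) among DNMT1, DNMT3A and DNMT3B (left) and among TET1, TET2 and TET3 (right) in the 12 groups. Points are group means and bars run from the lowest to the highest well. DNMT3B goes from 87.0% to 7.42% and DNMT3A from 7.72% to 57.9%, and TET2 from 4.83% to 57.3% while TET1 goes from 74.3% to 38.3%.

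The maintenance pair had its highest means at day 1 and fell during specification. DNMT1 (ENSG00000130816, 10133345 to 10231286, minus strand) and UHRF1 (ENSG00000276043, 4903080 to 4962154, plus strand) both lie on chromosome 19. DNMT1 wells held 163, 157 and 144 CPM in the pluripotent group, 168, 155 and 158 CPM at day 0 and 204.5, 222 and 199.8 CPM at day 1. The day 1 wells were above all wells of both other groups, but the change of 0.38 (SE 0.25) from day 0 did not pass (adjusted p = 0.31). With only the groups compared it passed (0.39, SE 0.06, adjusted p = 5.6e-04), a fit that called 10538 of 17896 genes. Day 9 wells held 57.1, 50.6, 53.3, 56.9 and 78.4 CPM, below every well of day 5 (93.7 to 128 CPM). In the step from day 5 to day 9, 4 of 9 members passed, all lower, against 20% of all genes (11.2% higher and 8.8% lower): DNMT1 fell by 0.92 (SE 0.20, adjusted p = 6.0e-04), UHRF1 by 1.41 (SE 0.30, adjusted p = 6.2e-04), and DNMT3A and DNMT3B as given above. The DNMT1 call of that step did not hold on TPM of all genes.

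UHRF1 wells held 62.9, 69.0 and 69.1 CPM at day 0, 94.1, 109 and 97.8 CPM at day 1 and 103.6, 102.9 and 87.4 CPM at day 3. At day 9 they held 20.5, 24.3, 28.2, 22.0 and 32.5 CPM, without overlap with day 0. The change of UHRF1 from day 0 to day 1, 0.58 (SE 0.38), did not pass (adjusted p = 0.31). With only the groups compared it passed (0.59, adjusted p = 1.5e-04). From day 0 to day 9 UHRF1 fell by 1.39 (SE 0.33, adjusted p = 7.2e-04) and DNMT1 by 1.43 (SE 0.22, adjusted p = 1.2e-06). From day 9 to day 90 neither passed, with changes of -0.54 (95% interval -1.23 to 0.15) for UHRF1 and -0.29 (95% interval -0.73 to 0.16) for DNMT1. Both passed lower on TPM with a pseudocount of 0.1 (-1.15 each, adjusted p = 0.0311 for UHRF1 and 0.0404 for DNMT1). They also did on TPM rescaled to protein-coding genes (-0.77, adjusted p = 0.0492, and -0.80, adjusted p = 0.0134). Counts of S1PR2, a receptor gene on the same strand whose exons overlap those of DNMT1, were 16.6% of the DNMT1 counts, and how reads were divided there is not given in the sources used here.

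No difference in the ratio of the 2 genes was detected over either phase. The log2 ratio of UHRF1 to DNMT1 TPM was -1.20 ± 0.19 at day 0 (SD, n = 3), -1.26 ± 0.39 at day 9 (SD, n = 5) and -1.29 ± 0.96 at day 90 (SD, n = 3). The differences of -0.07 and -0.03 had p = 0.857 and 1 in two-sided exact permutation tests. With an SD near 1 log2 unit at day 90, this does not show that the ratio stayed the same. Between these groups the mean ratio went down to -1.62 at day 14, -1.96 at day 20 and -2.05 at day 30, days that were not part of a ratio test.

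After day 9 both genes were widely spread among wells of the same day. At day 11, replicates 1 and 2 held 40.3 and 40.7 CPM of UHRF1 and 96.1 and 80.4 CPM of DNMT1, against 14.3, 14.4 and 18.2 CPM and 44.9, 49.6 and 48.2 CPM in replicates 5, 6 and 7. At day 20, replicate 3 held 54.4 CPM of UHRF1 against 19.8 and 16.1 CPM, and at day 30, replicate 1 held 34.2 CPM against 14.1 and 10.2 CPM. Those wells of higher UHRF1 were also the wells of higher replication genes: the geometric mean of the 18 replication genes was 56.7 and 54.6 CPM against 21.1 to 24.5 CPM at day 11, 85.8 against 26.3 and 21.9 CPM at day 20 and 47.2 against 37.5 and 19.3 CPM at day 30. At day 90, UHRF1 was 23.5, 8.001 and 20.8 CPM and the replication mean 49.2, 28.9 and 46.8 CPM in replicates 2, 4 and 5. Without day 30 replicate 1, UHRF1 fell from day 9 to day 30 by 1.09 (adjusted p = 0.0410), in place of -0.38 with it (adjusted p = 0.42).

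Over all 44 wells, with group means removed, UHRF1 followed the mean of the replication genes with Pearson's r = 0.91 and Spearman's rho = 0.83, both with a permutation p of 1e-05, the smallest that 100000 permutations can give, and 9e-05 adjusted over the 9 members. Deviations of the replication mean ran from -0.16 to 0.20 log2 units up to day 9 and from -0.75 to 1.22 in later wells. The r over all wells therefore rests mainly on wells from day 11 on. The permutation takes wells of a day as exchangeable, but day 11 replicates 1 and 2 lay apart from replicates 5, 6 and 7. The relation up to day 9 alone was not tested. Without the 2 wells farthest from the median (day 20 replicate 3 and day 11 replicate 1) r was 0.88. Within the 5 sequencing lanes of 8 to 10 libraries, r was 0.94, 0.91, 0.99, 0.74 and 0.98. For DNMT1 r was 0.56 (permutation p = 0.019, adjusted p = 0.0681) and rho 0.42 (permutation p = 0.037, adjusted p = 0.153). Its r was 0.41 without those 2 wells and ran from -0.53 to 0.93 within lanes. For DNMT3B r was 0.57 (permutation p = 0.0227, adjusted p = 0.0681) and rho 0.40 (permutation p = 0.051, adjusted p = 0.153), with r from -0.17 to 0.91 within lanes. None of the other 6 members passed, with r from -0.41 for TDG to 0.17 for TET2. On log2(TPM + 1) in place of TMM-scaled CPM, 7 of the 9 members passed, and TET3 changed sign (r = 0.42 against -0.27), so the relations of members other than UHRF1 depend on the scale.

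**Figure D3:**
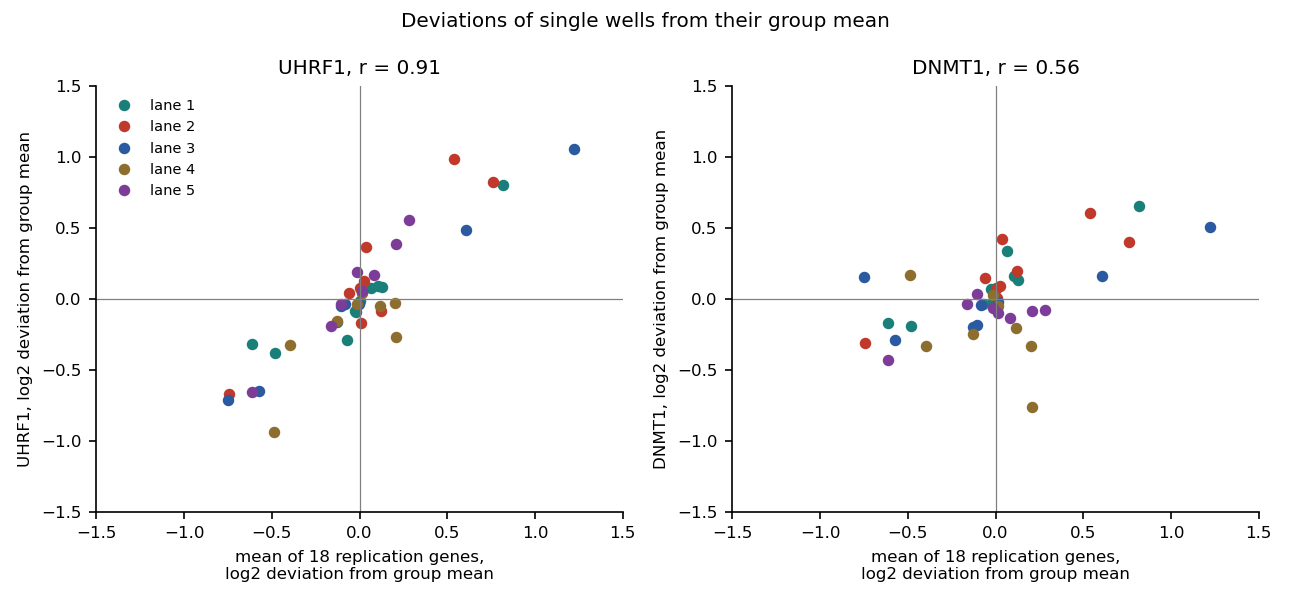
Deviation of UHRF1 (left) and DNMT1 (right) from the group mean against the deviation of the mean of 18 replication genes, both in log2 CPM, for 44 wells coloured by sequencing lane. UHRF1 points follow the replication genes in every lane (r = 0.91 over all wells), while DNMT1 points scatter more (r = 0.56), those of lane 4 running the other way. The points with the widest replication deviations are wells from day 11 on.

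The windows around the start sites of these 2 genes are shown because E2F factors, which switch on replication genes at the start of S phase, bind a known short site. The RefSeq table of start-site windows (GRCh38.p14, 250 bases before to 50 bases after a start) had windows for 8 of the 9 members, 19 in all, and none for DNMT3L. Searched on both strands for TTTGGCGC, TTTCGCGC, TTTGCCGC and TTTCCCGC, 3 of the 19 windows had a match, and they belong to DNMT1 and UHRF1. Of all 35116 windows 3.31% had one, and of the 22 windows of replication genes 11 did, which belong to 11 of the 16 replication genes with a window. Each window is printed to 30 bases from the start on, with the match in capitals. DNMT1 is at chr19:10194924-10195203 on the minus strand, with its match from base 249 on the opposite strand, so that it reads GCGCGAAA in the line. The upstream UHRF1 window is at chr19:4909251-4909530 on the plus strand (match on the opposite strand from base 237), and the downstream one at chr19:4909894-4910173 on the plus strand (match on the window strand from base 91). A further UHRF1 window, starting at 4910117, had no match and is not printed.
DNMT1: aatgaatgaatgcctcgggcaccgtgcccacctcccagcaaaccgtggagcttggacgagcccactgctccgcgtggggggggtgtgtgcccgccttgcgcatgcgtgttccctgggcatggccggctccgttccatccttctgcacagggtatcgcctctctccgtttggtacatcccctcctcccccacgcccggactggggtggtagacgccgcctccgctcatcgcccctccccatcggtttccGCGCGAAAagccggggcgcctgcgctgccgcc
UHRF1 upstream window: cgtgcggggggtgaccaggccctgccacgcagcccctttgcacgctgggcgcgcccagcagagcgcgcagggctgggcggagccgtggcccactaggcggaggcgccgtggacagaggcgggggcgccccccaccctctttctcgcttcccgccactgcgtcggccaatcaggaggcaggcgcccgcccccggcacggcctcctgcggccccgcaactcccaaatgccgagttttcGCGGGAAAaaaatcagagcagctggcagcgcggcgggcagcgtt
UHRF1 downstream window: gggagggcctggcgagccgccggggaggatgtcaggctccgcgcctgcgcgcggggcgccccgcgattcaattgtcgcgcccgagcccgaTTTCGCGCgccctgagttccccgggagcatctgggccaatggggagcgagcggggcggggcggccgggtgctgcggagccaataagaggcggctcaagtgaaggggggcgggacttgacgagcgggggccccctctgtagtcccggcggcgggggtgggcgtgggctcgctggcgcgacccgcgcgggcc
A match describes these letters only. The other 6 members with a window had no match, which says nothing of the factor, and the window listed for DNMT3B starts at 32779602 on chromosome 20, downstream of the gene start that GENCODE gives at 32762385. The windows printed for DNMT1 and UHRF1 likewise lie inside the GENCODE genes, whose outermost starts are at 10231286 and 4903080. The CCAAT box, searched as CCAAT on both strands, was in 7 of the 19 windows, of 5 members, and in 34.6% of all windows, and the octamer ATGCAAAT, searched likewise, was in 0 of the 19 and in 1.77% of all.

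Among the erasers, TET2 (ENSG00000168769, chromosome 4, 105145875 to 105279816, plus strand) was the member that rose over both phases. Its level was 5.30, 6.13 and 4.37 CPM in pluripotent wells, 10.7, 8.45 and 10.5 CPM at day 0 and 6.60, 7.49 and 8.31 CPM at day 1. The day 3 wells held 24.8, 26.4 and 28.8 CPM, those of day 5 33.1 to 43.3 CPM and those of day 9 41.3 to 53.7 CPM. Day 30 wells held 100.1, 104 and 62.9 CPM and day 90 wells 117, 144 and 172 CPM. All wells from day 3 on were above all wells before it, and all day 90 wells were above those of any other day. In the order of its means, which is the order in time except that day 0 stood above day 1, 6 of the 11 neighbouring pairs overlapped, those from day 5 to day 30.

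TET2 rose by 0.91 (SE 0.20, adjusted p = 0.0047) from pluripotent to day 0, the only member to pass there, although that call did not hold on any of the 3 settings with the deposited TPM. Its largest step was from day 1 to day 3, by 1.83 (SE 0.20, adjusted p = 3.5e-09). From day 3 to day 5 the change of 0.47 did not pass (adjusted p = 0.056), and in that step 1 of 9 members passed, DNMT3B, against 17.5% of all genes (8.16% higher and 9.35% lower). The TET2 change of that step passed with only the groups compared (adjusted p = 0.0048) and with DESeq2 (adjusted p = 0.0459). It also passed with lane as a term, on protein-coding TPM and without wells of RNA integrity under 8 (adjusted p = 0.0227 to 0.0397). TET2 rose by 0.90 (SE 0.17, adjusted p = 5.5e-05) from day 9 to day 30, where 3 of 9 members passed against 31.9% of all genes (16.6% higher and 15.3% lower), and by 0.70 (SE 0.19, adjusted p = 0.016) from day 30 to day 90, where 4 of 9 passed against 8.52% (4.03% higher and 4.49% lower). That last rise was lost without day 30 replicate 3 (0.50, adjusted p = 0.16) or day 90 replicate 5 (0.54, adjusted p = 0.13), and on the deposited TPM the change was 0.10. The other members that passed in that step, DNMT3B, TET3 and TDG, all fell, and with only the day 30 and day 90 wells in the fit 0 of 9 passed.

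The net rises of TET2 were 2.27 (SE 0.19, 95% interval 1.90 to 2.63, adjusted p = 1.7e-12) from day 0 to day 9 and 1.60 (SE 0.17, 95% interval 1.28 to 1.93, adjusted p = 5.5e-10) from day 9 to day 90. In pluripotent wells TET2 counts were 1.02 to 2.62% of those in the other libraries of the lane, and those of TNNT2, a heart muscle gene, 0.103 to 0.182%. The part of lane neighbours in the early TET2 level was not tested. The blood markers PTPRC and SPI1 together reached at most 0.557 CPM at day 90, with SPI1 at or under 3 counts in all wells. The 4 fibroblast markers COL1A1, COL3A1, DCN and POSTN summed to between 1609 and 4483 CPM at day 9 and to between 2144 and 12528 CPM at day 90, where 3 of the 4 had risen, and their part in the late rise of TET2 was not tested.

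TET1 (ENSG00000138336, chromosome 10, 68560656 to 68694482, plus strand) had its highest level at day 3. Its wells held 96.1, 92.4 and 69.4 CPM in the pluripotent group, 120.1, 149 and 96.6 CPM at day 1 and 217.5, 223 and 224.5 CPM at day 3, which lay above every other well of the series. The rise from day 1 to day 3 was by 0.86 (SE 0.23, adjusted p = 0.0037) and did not hold on the 3 settings with the deposited TPM. No other step of TET1 passed in the edgeR fit of all groups. From pluripotent to day 0 the change of 0.69 (SE 0.23) did not pass there (adjusted p = 0.064), although the ranges were apart. That change passed with DESeq2 (adjusted p = 0.0376) and with only the groups compared (adjusted p = 0.0012). It also passed on protein-coding TPM (adjusted p = 0.0328) and without wells of RNA integrity under 8 (adjusted p = 0.0392). Day 9 against day 0 gave -0.07 (95% interval -0.47 to 0.33) and day 90 against day 9 gave 0.15 (95% interval -0.24 to 0.55). At day 30, replicates 1 and 10 held 174 and 165.5 CPM and replicate 3 held 74.2 CPM.

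TET3 (ENSG00000187605, chromosome 2, 73986404 to 74108176, plus strand) was the lowest of the erasers at day 90. Its level was 26.7, 27.4 and 25.9 CPM in pluripotent wells and 41.1, 40.2 and 40.7 CPM at day 1, a change from day 0 (30.6, 27.9 and 30.0 CPM) of 0.46 that did not pass (adjusted p = 0.11). That change passed with only the groups compared (adjusted p = 2.7e-04). It also passed with the replicate block and without wells of RNA integrity under 8 (adjusted p = 0.0198 and 0.0192). TET3 was highest by mean at day 14, with 50.5, 38.4 and 57.2 CPM, and lowest at day 90, with 19.6, 17.7 and 19.0 CPM. TET3 fell from day 9 (24.3 to 37.4 CPM) to day 90 by 0.79 (SE 0.19, adjusted p = 0.0011), which did not hold on TPM of all genes. The fall from day 30, by 0.89 (SE 0.21, adjusted p = 0.0059), was lost without day 30 replicate 1 (-0.65, adjusted p = 0.058), and day 30 replicate 10, at 18.4 CPM, lay among the day 90 wells.

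Per transcript length TET1 was the main eraser until day 30 and TET2 at day 90. TET1 made up 74.3% ± 3.10 (SD, n = 3) of the summed TPM of the 3 genes in pluripotent wells, 77.5% at day 3, 59.6% ± 2.21 (SD, n = 5) at day 9 and 38.3% ± 2.497 (SD, n = 3) at day 90. TET2 made up 4.83%, 10.0%, 26.5% ± 1.82 and 57.3% ± 2.64 in the same groups. TET3 made up 20.8% in pluripotent wells and 4.34% at day 90. The wells of day 30 ranged from 35.8 to 53.3% for TET1 and from 34.4 to 43.2% for TET2, and TET2 was above TET1 in replicate 3 alone.

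The log2 ratio of TET1 to the sum of TET2 and TET3 was 1.77 ± 0.04 at day 0 (SD, n = 3), 0.56 ± 0.13 at day 9 (SD, n = 5) and -0.69 ± 0.15 at day 90 (SD, n = 3). The groups did not overlap. The differences of -1.21 and -1.25 each had p = 0.0357 in a two-sided exact permutation test, again the smallest possible, and an adjusted p of 0.0536.

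**Figure D4:**
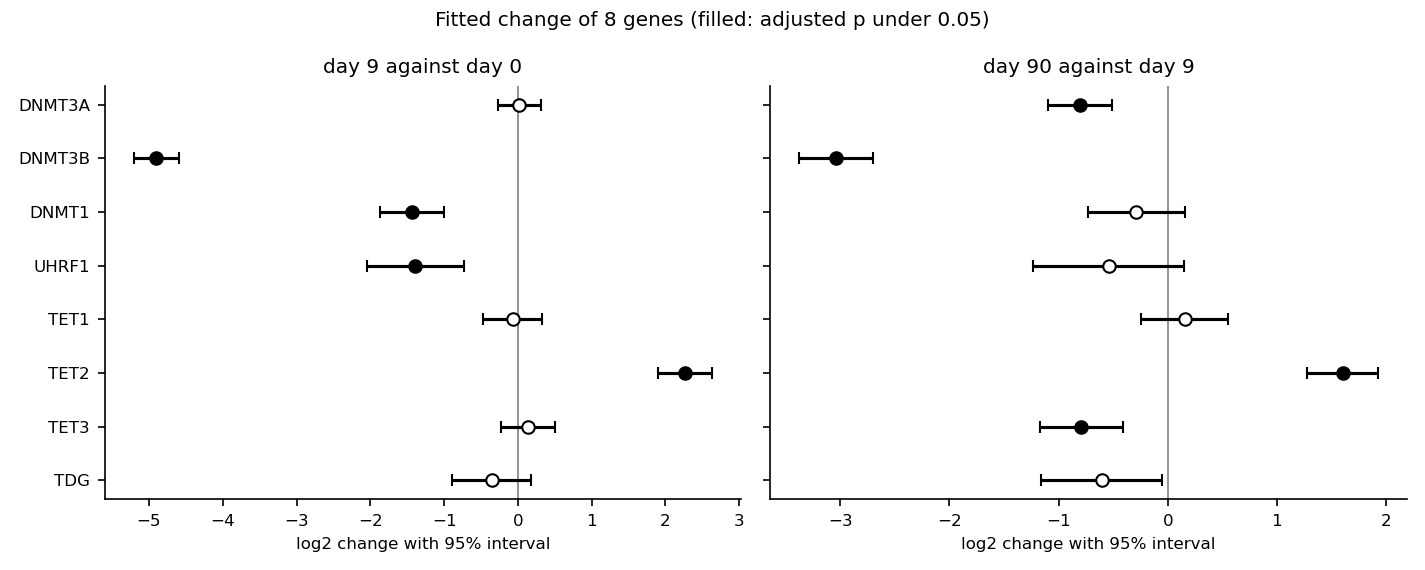
Fitted log2 change with its 95% interval for 8 of the 9 genes from day 0 to day 9 (left) and from day 9 to day 90 (right), DNMT3L being left out for its low counts. Filled points passed at an adjusted p under 0.05. DNMT3B lies at -4.90 and -3.04 and TET2 at 2.27 and 1.60, with all other points between -1.43 and 0.15.

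TDG, the glycosylase (ENSG00000139372, chromosome 12, 103965804 to 103988874, plus strand), showed no passing change before day 90 with all wells in the fit. Without day 30 replicate 10 it rose from day 9 to day 30 by 0.81 (adjusted p = 0.0189), in place of 0.50 (adjusted p = 0.15), and without both wells of RNA integrity under 8 it passed there (0.82, adjusted p = 0.0153) and from day 0 to day 1 (0.71, adjusted p = 0.0438). The day 30 wells then left were replicate 1 at 37.1 CPM, within the day 9 range of 32.9 to 41.4 CPM, and replicate 3 at 102 CPM. That rise to day 30 therefore rests on replicate 3. TDG wells held 82.5, 75.6 and 67.3 CPM in the pluripotent group, 53.7, 43.8 and 51.4 CPM at day 0 and 85.8, 69.2 and 82.0 CPM at day 1. These 3 groups were apart in range, except pluripotent and day 1, but the changes of -0.60 and 0.67 did not pass (adjusted p = 0.27 and 0.12). With only the groups compared both passed (-0.57 and 0.68, adjusted p = 0.0013 and 3.2e-04). From day 14 to day 30 the wells fell into high and low values within each day: 35.9, 35.2 and 85.2 CPM at day 14, 89.7, 81.0 and 38.6 CPM at day 20 and 37.1, 25.9 and 102 CPM at day 30. The 4 high wells had the lowest replication means of their days in 3 cases (27.6, 21.9 and 19.3 CPM), and day 20 replicate 1 had 26.3 CPM. Their RNA integrity numbers were 8.2, 8.2, 8.0 and 10. At day 90 TDG held 29.4, 21.5 and 25.5 CPM, and the fall from day 30, by 1.11 (SE 0.31, adjusted p = 0.021), rests on day 30 replicate 3: without it the change was -0.31 (adjusted p = 0.58). That call was also lost without day 90 replicate 4 or 5 (adjusted p = 0.0780 and 0.0631) and with sequencing lane as a term (adjusted p = 0.0682). Day 9 against day 0 (-0.36, adjusted p = 0.29) and day 90 against day 9 (-0.61, adjusted p = 0.088) did not pass. Both passed lower with only the groups compared (adjusted p = 0.0198 and 0.0115). The second also passed on TPM with a pseudocount of 1 or 0.1, on protein-coding TPM and without wells of RNA integrity under 8 (adjusted p = 0.0051 to 0.0441).

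Base excision repair completes the removal that TET enzymes and TDG begin. Of its 13 other genes, 1 rose and 5 fell from day 0 to day 9, and 0 rose and 5 fell from day 9 to day 90, with median changes of -0.20 and -0.37 beside 0.08 and -0.02 for all genes. Beside 47.6% and 38.4% of all genes called, the numbers called are near the background. PARP1, which senses DNA breaks, fell by 2.04 (SE 0.15, adjusted p = 1.6e-13) by day 9, the uracil glycosylase UNG by 1.30 and the replicative ligase LIG1 by 1.40. LIG3, the ligase of this repair path in mitochondria and nucleus, fell by 1.22 (adjusted p = 1.4e-10) from day 9 to day 90, together with TET3 and DNMT3A.

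Of the 9 methyl-CpG readers 5 rose and 1 fell from day 0 to day 9, and 3 rose and 3 fell from day 9 to day 90, beside 24.1% higher and 23.5% lower and then 18.7% higher and 19.7% lower among all genes. Their median changes were 0.44 and 0.21. ZBTB4 (0.92) and ZBTB33 (0.85), zinc-finger proteins that bind methylated DNA, rose from day 0 to day 9, and ZBTB38 (1.37) and MBD2 (0.90) from day 9 to day 90. None of these 4 calls held on the deposited TPM, where the change of MBD2 was -0.17.

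Among 19 partners of the methyltransferases and TET enzymes, 2 rose and 12 fell from day 0 to day 9 and 1 rose and 11 fell from day 9 to day 90, against 23.5% and 19.7% of all genes lower. The median changes were -0.78 and -0.45. HELLS, a chromatin remodeller needed for normal methylation, fell by 2.26 (SE 0.33, adjusted p = 5.5e-07) by day 9, and CDCA7, which recruits it, fell by 1.51 (SE 0.31, adjusted p = 1.4e-04) from day 9 to day 90. CXXC4, a CXXC protein that binds TET2, rose by 2.41 (SE 0.42, adjusted p = 1.1e-05) by day 9, from 4.70 to 24.9 CPM, and fell by 1.41 (adjusted p = 0.0049) to 9.44 CPM at day 90. DPPA3, which keeps UHRF1 off chromatin in germ cells, was at 2.59 CPM at day 0, 0.154 CPM at day 9 and 0 in all wells of day 90. Its day 9 level lay within the range of the floor, so its fall to day 90, counted among the 11, is a description. That call was lost without day 90 replicate 2 (adjusted p = 0.0519) and on TPM of all genes.

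Genes for the supply and breakdown of the TET cofactor oxoglutarate, and genes of the methyl donor cycle, were read in 2 further lists. The first mixes both roles, so its counts do not measure supply. Of 12 oxoglutarate genes 4 rose and 2 fell by day 9, and 8 rose and 0 fell from day 9 to day 90, with median changes of 0.32 and 0.66. The first count is near the background of 47.6% called, and in the second phase 18.7% of all genes were higher and 19.7% lower. IDH3A, a subunit of the mitochondrial enzyme that makes oxoglutarate, rose by 1.93 (SE 0.26, adjusted p = 1.4e-07) from day 9 to day 90, IDH2 by 1.36 from day 0 to day 9, and SDHA, of succinate dehydrogenase, by 1.11 from day 9 to day 90. IDH1, the cytosolic enzyme, fell by 2.05 by day 9. The SDHA call was lost on the deposited TPM and that of IDH3A on TPM of all genes. Of 14 methyl donor genes 4 rose and 5 fell, and then 4 rose and 4 fell, beside 47.6% and then 38.4% of all genes called, with median changes of -0.38 and -0.16. GNMT, which consumes the methyl donor, went from 0.854 to 0.208 CPM by day 9 (adjusted p = 0.0015), and BHMT, a liver enzyme, from 1.57 CPM at day 9 to 0.106 CPM at day 90 (adjusted p = 0.0020). Both end levels lay within the range of the floor, so these falls are descriptions. The BHMT call was lost on TPM of all genes (adjusted p = 0.437). The call of MAT1A, the liver form of the enzyme that makes the donor, rests on day 9 replicate 2, whose endoderm markers summed to 6105 CPM: without that well the change was 0.64 (adjusted p = 0.47) in place of 2.17. It was also lost without any 1 of the day 0 wells (adjusted p = 0.0647 to 0.104).

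Of the 18 replication genes 0 rose and 17 fell from day 0 to day 9, a median change of -1.74, and 4 rose and 1 fell from day 9 to day 90. Of all genes 23.5% were lower in the first comparison and 38.4% were called in the second. MCM6 of the replicative helicase (-2.36), the licensing factor CDC6 (-2.32) and MCM5 (-2.30) changed most. UHRF1 (-1.39) and DNMT1 (-1.43) fell by somewhat less. Of the 11 pluripotency genes all 11 fell by day 9, with a median of -5.86, beside -4.90 for DNMT3B.

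A list of germline genes known to carry methylated promoters in somatic cells was read as well. Of the 12 listed, 7 had enough counts to be tested, 0 rose and 5 fell from day 0 to day 9, beside 23.5% of all genes lower. DAZL and TDRD1, at or under the floor by day 9, passed the filter on low counts through the early groups where they are high, so the count is a description. PIWIL2, of the piRNA pathway, fell by 4.35 (SE 0.39, adjusted p = 8.7e-12), from 33.3 to 1.63 CPM, and the meiotic cohesin STAG3 fell by 3.09 (SE 0.32, adjusted p = 3.6e-10). TDRD1 and DAZL went from 3.74 and 1.41 CPM to 0.0382 and 0.0232 CPM, under the floor. From day 9 to day 90, 1 rose (TDRD1, which stayed at 0.192 CPM) and 1 fell.

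Genes whose pattern over the 12 groups was most like each member were taken by the correlation of group means of log2(CPM + 1) among 12062 genes, as a description in which all genes share the same libraries. For DNMT3B they were the RNA editing enzyme ADAR (r = 0.993), BEND4 (0.993) and the zinc-finger factor SALL2 (0.991). For UHRF1 they were BRIP1, a helicase of DNA repair (0.990), MTBP (0.989) and the centriole gene SASS6 (0.979), and for DNMT1 they were EWSR1 (0.983), ZNF93 and the helicase gene MCM8 (0.976 each). For TET2 they were PROS1, which codes for protein S (0.988), ZCCHC24 (0.986) and the copper transporter ATP7A (0.985). Further such genes were STARD9 (0.918) for TET1, CTSV (0.949) for DNMT3A and DDX42 (0.967) for TDG. Among the members themselves, r over the 12 group means was 0.95 for DNMT1 with UHRF1 and -0.98 for DNMT3B with TET2.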

How the data were processed

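RNA of 44 wells was sequenced in 1 batch over 5 lanes. The day 90 wells were in lanes 4 and 5, those of day 30 in lanes 2, 3 and 4 and those of day 20 in lanes 1, 2 and 3. Day and lane are therefore partly confounded in the late comparisons. The authors deposited estimated counts per gene, of which 93.8% are whole numbers, and TPM. Reads were trimmed with cutadapt, aligned with STAR 2.5.2b to hg38 and quantified with RSEM 1.2.31, per the submitters' processing notes, and the annotation and any use of strand are not given in the sources used here. The RNA integrity number is a score given per the labels. Of the 60499 gene identifiers, 56769 were found in GENCODE 29, which supplied symbols and positions.

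Estimated counts were rounded to whole numbers, filtered (filterByExpr), scaled by TMM and fitted over all groups with edgeR 4.0.16 (quasi-likelihood test, R 4.3.3), with Benjamini-Hochberg adjustment over 22955 genes. The 9 comparisons share groups, so they are not independent of each other. TPM ratios were tested by exact permutation and relations with replication genes by 100000 permutations within groups on log2(CPM + 0.5), in Python 3.11.15 with SciPy 1.17.1. Fitting was tested on simulated data. Alternatives used DESeq2 1.42.0 and limma 3.58.1 on log2(TPM + 1) or log2(TPM + 0.1), another scaling, no filter, a replicate block, lane as a term, only the groups compared, a fold minimum of 2, and each well left out. Rescaled protein-coding TPM and leaving out wells with an RNA integrity number under 8 were added after seeing the data.

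The members and lists were chosen with earlier results of these data known. Named genes are the members, up to 4 passing genes per list with the largest change in day 9 against day 0 or day 90 against day 9, and the 3 protein-coding genes most like each member whose group means span at least 1 log2 unit; some of these are not reported here. Replicate numbers did not pair the wells by their deviations, whose mean correlations ran from -0.004 to 0.159. Total counts set the precision, and no library duplicated another.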

Additional observations from a re-analysis of the deposited data

Results flagged for a closer look

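The members' levels at days 5, 7, 9 and 11 gave 35 sets of wells, 1 per gene and day, that were checked for a single well far from the others. Of these 3 were picked out, and chance alone picks about 1 in 20. DNMT1 at day 9 was 78.4 CPM in replicate 4 and between 50.6 and 57.1 CPM in the other wells. DNMT3L was 0.0359 CPM in day 7 replicate 2 and 0.0786 CPM in day 9 replicate 3, which are 1 and 2 counts, with 0 in all other wells of those days and both under the floor of 3 counts. A single well above 0 among wells at 0 is always picked out by such a check.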

How the results depend on the processing

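DNMT3B and TET2 in both net comparisons (day 9 against day 0, day 90 against day 9) passed in the same direction under all alternatives run. TET2 in day 30 against day 9 did so except with a 2-fold minimum. The number of members passing moved as follows. From pluripotent to day 0 it was 1, and 0 with a 2-fold minimum and on the 3 settings with deposited TPM, 6 with only the groups compared, and 2 with DESeq2, protein-coding TPM or without wells of low RNA integrity. From day 0 to day 1 it was 2, and 1 with no filter, with lane as a term, with DESeq2, on TPM of all genes and on protein-coding TPM, 0 on TPM with a pseudocount of 1 or 0.1, 6 with only the groups compared, 4 without wells of low RNA integrity, and 1 to 1 with a well left out. From day 1 to day 3 it was 4, and 2 with a 2-fold minimum and on the deposited TPM. From day 3 to day 5 it was 1, and 2 with lane as a term, DESeq2, protein-coding TPM or without wells of low RNA integrity, and 6 with only the groups compared. From day 5 to day 9 it was 4, and 2 with a 2-fold minimum and on TPM of all genes. From day 9 to day 30 it was 3, and 1 with a 2-fold minimum. From day 30 to day 90 it was 4, 1 with a 2-fold minimum, 0 with only the groups compared (edgeR, 2 genes called in all and 1760 at an unadjusted p under 0.05), 0 on TPM of all genes, and 2 to 6 with a well left out. With lane as a term TDG was lost there, and 1082 genes were called in all in place of 1955. From day 9 to day 90 it was 4, 2 with a 2-fold minimum, and 7 on TPM with a pseudocount of 0.1 and on protein-coding TPM. The relation with replication genes passed for 1 member, and for 7 on log2(TPM + 1), where TET3 turned from -0.27 to 0.42. MBD2 from day 9 to day 90 turned from 0.90 to -0.17, -0.18 and -0.17 on the deposited TPM. The cause of these moves was not tested.

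Among the more abundant genes, the log2 change on log2(TPM + 1) less that with TMM scaling had a median of -0.81 in day 90 against day 30. It was -0.54 in day 90 against day 9 and -0.37 in day 9 against day 0. On TPM, 1.98%, 14.5% and 29.5% of called genes were higher in these comparisons, against 47.3%, 48.7% and 50.6% as reported. From day 3 to 5, day 5 to 9 and day 9 to 30 they were 24.1%, 29.9% and 68.1% against 46.6%, 56.0% and 52.1%, and on protein-coding TPM 93.3% against 58.6% from pluripotent to day 0.

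With the replicate block, 1, 2, 4, 1, 3, 2 and 3 members passed in the 7 successive comparisons, 5 in day 9 against day 0 and 4 in day 90 against day 9. DNMT3L (-3.25, day 0 to day 1), DNMT3A (-0.32, day 5 to 9, and -0.36, day 9 to 30) and TET2 (0.62, day 30 to 90) no longer passed, and TET3 (0.46, day 0 to day 1) passed. What wells of the same number share between days is not given in the sources used here. Whether the block is the better model for these calls was not tested.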
